A study of Mus musculus with 3 samples.

Results

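The integrins and laminins are 2 families of adhesion genes, the receptors that hold cells to their surroundings and the basement membrane proteins that many of those receptors bind. Members were the genes whose symbol starts with Itga or Itgb, leaving out the binding proteins that carry "bp", and the genes named Lama, Lamb or Lamc with a digit. Of 38 such symbols considered here, 36 were matched by RefSeq accession to a probe, out of 21154 genes so named on the array. They were 8 leukocyte integrins, 18 other integrins and 10 laminins, with 49 probes in all. By the scanner's flag for signal well above background, 36 of these probes passed in Cy5 or in Cy3 on every array, 34 passed in both dyes on every array, and 11 never passed. The brightest probe that passed stood for each gene, which left 29 genes to test among 19327 features.

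Whole brown adipose tissue was profiled on 3 two-colour arrays, each carrying 1 sample of either genotype. The Ad-Lkb1 mice carry the deletion of LKB1, a kinase encoded by Stk11, that the series title names; they were male, 10 weeks old, on regular chow, with the strain given as C57BL/6J, and their RNA was labelled with Cy5. The WT mice were littermates of the same sex, age and diet, with the strain given as C57BL/6, and their RNA was labelled with Cy3. The driver and cell type of the deletion are not given in the sources used here, and dye, strain name and genotype ran together on every array, so they cannot be told apart.

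Integrins are receptors of 1 alpha and 1 beta subunit that span the membrane and link the extracellular matrix, or a counter-receptor on another cell, to the actin cytoskeleton. One family branch, built on the shared beta subunit Itgb2 or on Itga4 and Itgb7, is carried mainly by white blood cells and serves their adhesion and trafficking, while the others bind collagen, laminin or ligands with an Arg-Gly-Asp sequence. Laminins are trimers of an alpha, a beta and a gamma chain that polymerise into the basement membrane, which surrounds each adipocyte and lines the capillaries of fat, and which nidogen and type IV collagen complete.

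The targeted gene checked the labels. Stk11 had log2 normalised intensities, the level measure used throughout, of 8.36, 8.46 and 8.37 in Ad-Lkb1 tissue, against 9.62, 9.63 and 9.54 in WT tissue, on arrays 1 to 3. Every Ad-Lkb1 sample lay below every WT sample, and the log2 ratio of Ad-Lkb1 over WT was -1.20 ± 0.06 (SD, n = 3 arrays; limma Benjamini-Hochberg adjusted p = 0.0105). All 8 adipocyte markers were well above background. Their summed level, on the linear scale, was 365707 to 402438 in Ad-Lkb1 tissue and 236254 to 262744 in WT tissue. Most of each Ad-Lkb1 sum was Ucp1 and Cidea. By limma 2 of 8 were called as higher and 0 as lower, with 2 lower at an unadjusted p under 0.05. The median log2 ratio was 0.08, with 3 of 8 above 0 on all arrays and 3 below. Ucp1, the uncoupling protein of brown fat, had log2 intensities of 17.03, 16.72 and 16.77 in Ad-Lkb1 tissue, against 15.34, 15.34 and 15.42 in WT tissue, a log2 ratio of 1.48 (limma adjusted p = 0.0114). Cidea, a lipid droplet protein, had 0.55 (adjusted p = 0.0303). The Cidea ratio was -0.12 with median centring, where the median of all features was -0.42, and it was uncalled without array 3 (adjusted p = 0.0505). The part of the adipocyte values in the member results was not tested. The median red signal was 21 to 23 against a background of 17, the median green signal was 51 to 53.5 against 43 to 44, and no spot was saturated; signals near background limit the precision of dim probes, and the number of arrays limits it for all. Skeletal muscle transcripts differed widely among samples of both genotypes: the summed level of 5 markers was 3296, 12444 and 12506 in Ad-Lkb1 tissue and 11737, 4448 and 2970 in WT tissue. Pan-leukocyte transcripts were high in the WT sample of array 3, as given below beside the leukocyte integrins.

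Across the genes tested, 4 rose and 1 fell in Ad-Lkb1 tissue by limma at an adjusted p under 0.05. The laminin chains Lamc3 and Lama2 and the integrin genes Itgb5 and Itgbl1 rose, and the collagen receptor subunit Itga1 fell. The ratios of Itgb5 and Lama2 turned to -0.18 and -0.11 when arrays were centred on their median in place of loess. That centring put the median of all features tested at -0.42, which lay below both. Of all 19327 features, 8.7% were called, 4.78% as higher and 3.92% as lower. The median log2 ratio of the 29 members was 0.11, beside -0.01 over all features. In 9 members the ratio was above 0 on all 3 arrays and in 4 it was below 0 on all 3, beside 24% and 27.7% of all features. The remaining 16 members changed sign between arrays. In bulk tissue, fewer cells of a type and less RNA per cell cannot be told apart. No call of any feature held without array 1 or without array 2, where limma called 0 features and 3928 and 3562 passed an unadjusted p of 0.05.

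**Figure D1:**
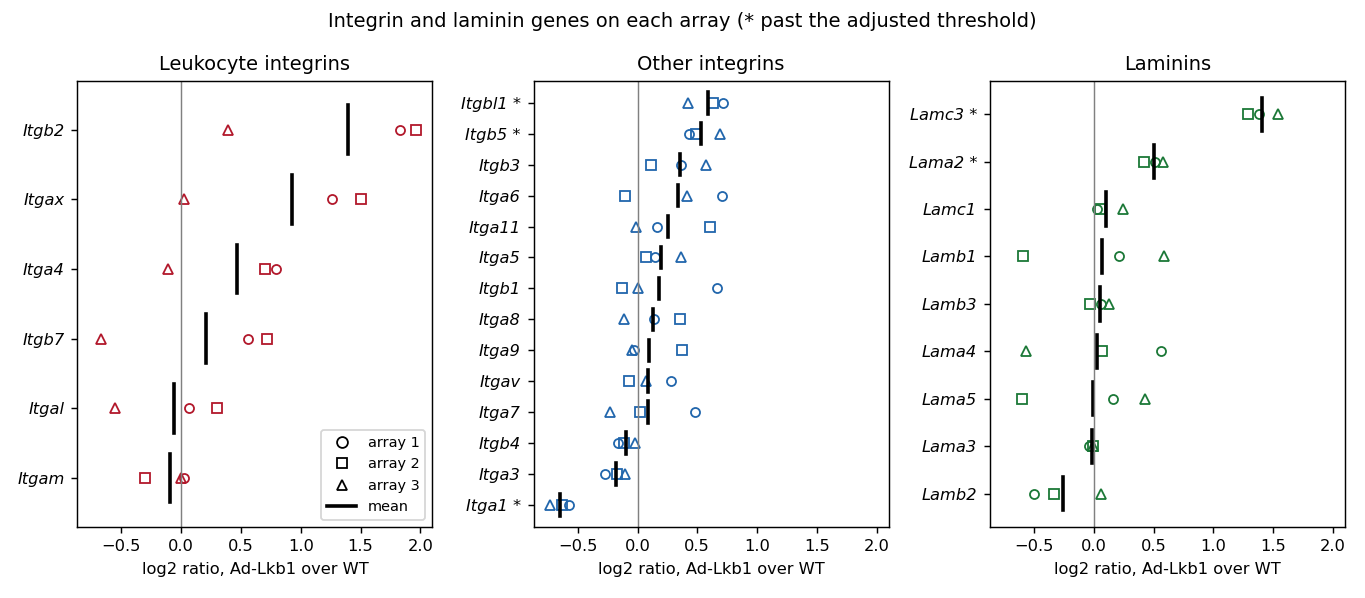
Log2 ratio of Ad-Lkb1 over WT for the 29 genes tested, with 1 symbol per array, a black bar for the mean and an asterisk for an adjusted p under 0.05. Laminins spread from -0.26 to 1.40 and other integrins from -0.64 to 0.59 in their means, and for 5 of 6 leukocyte integrins array 3 gave the lowest ratio. The ratios of Itgb5 and Lama2 lay below 0 with median centring, where the median of all features was -0.42.

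Among the laminins, 2 of 9 genes tested rose and none fell, beside 4.78% and 3.92% of all features, with 0 lower at an unadjusted p under 0.05. The median log2 ratio of the 9 was 0.05, so the calls came from single chains and not from the list as a whole. By position in the trimer, 1 of 4 alpha chains and 0 of 3 beta chains were called, and limma gave 0 of the 3 beta chains at an unadjusted p under 0.05. The median was 0.01 for the alpha chains and 0.05 for the beta chains.

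Lamc3 encodes the gamma-3 chain, a variant described in nerve, retina and brain that can replace the common gamma-1 chain. Its log2 intensity was 8.88, 8.97 and 9.08 in Ad-Lkb1 tissue, against 7.50, 7.68 and 7.54 in WT tissue. All Ad-Lkb1 samples were above all WT samples, and the 3 ratios, 1.39, 1.29 and 1.54, lay close together. The mean log2 ratio was 1.40 ± 0.12 (SD, n = 3), or 2.65-fold, with a limma adjusted p of 0.0105, and it was 0.82 and still called with median centring.

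Lama2, the alpha-2 chain of the laminin around muscle fibres and Schwann cells, had log2 intensities of 8.82, 8.58 and 8.68 in Ad-Lkb1 tissue, against 8.30, 8.16 and 8.10 in WT tissue. The groups did not overlap. Its log2 ratio was 0.50 ± 0.08 (SD, n = 3), or 1.42-fold (limma adjusted p = 0.0309), and a second probe gave 0.36, 0.36 and 0.38 on arrays 1 to 3. The call was lost without array 3 (adjusted p = 0.0547) and the ratio was -0.11 with median centring, beside -0.42 for the median of all features. The Lama2 ratios were 0.51, 0.42 and 0.58 on arrays where skeletal muscle markers had median log2 ratios of -3.17, 2.33 and 3.90. Schwann cell markers summed to 20365 to 23072 in Ad-Lkb1 tissue and 8854 to 9103 in WT tissue, with 1 of 4 tested called (S100b). Most of each Ad-Lkb1 sum was S100b, which had a log2 ratio of 2.02 (limma adjusted p = 0.0179). The median log2 ratio of the 4 was 0.33, and 2 of the 4 differed in sign between arrays. The part of muscle and Schwann cells in the Lama2 result was not tested.

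The other 7 laminin chains did not pass the test, and several of them were uneven between arrays. Lamc1, the common gamma chain, had a mean log2 ratio of 0.11 (adjusted p = 0.447), although its level was the lowest on array 1 and the highest on array 3 in both genotypes. Lama4, the main alpha chain of endothelium and adipocytes, had ratios of 0.56, 0.07 and -0.56. Lamb1, the common beta chain, had 0.21, -0.60 and 0.59, and Lama5, which forms laminins of mature vessels, had 0.16, -0.60 and 0.43. Lamb1 and Lama5 thus shared their order of arrays, with array 2 lowest, while Lama4 was lowest on array 3. Lamb2 had the lowest mean of the laminins, -0.26, with -0.50, -0.33 and 0.06 (adjusted p = 0.271). Lama3 and Lamb3, chains of epithelial basement membranes, had means of -0.02 and 0.05 (adjusted p = 0.889 and 0.681), with no single-array ratio further from 0 than 0.13. Both were dim, at mean log2 intensities of 6.42 and 6.67 in Ad-Lkb1 tissue, so small ratios there say little. Over the alternatives Lama3 ran from -0.24 to -0.01 and Lamb3 from -0.20 to 0.36. For 5 of 9 laminins array 2 gave the lowest ratio, beside 30.1% of all features. Lama1, the embryonic alpha chain, was well above background on no array in either channel and was not tested.

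**Figure D2:**
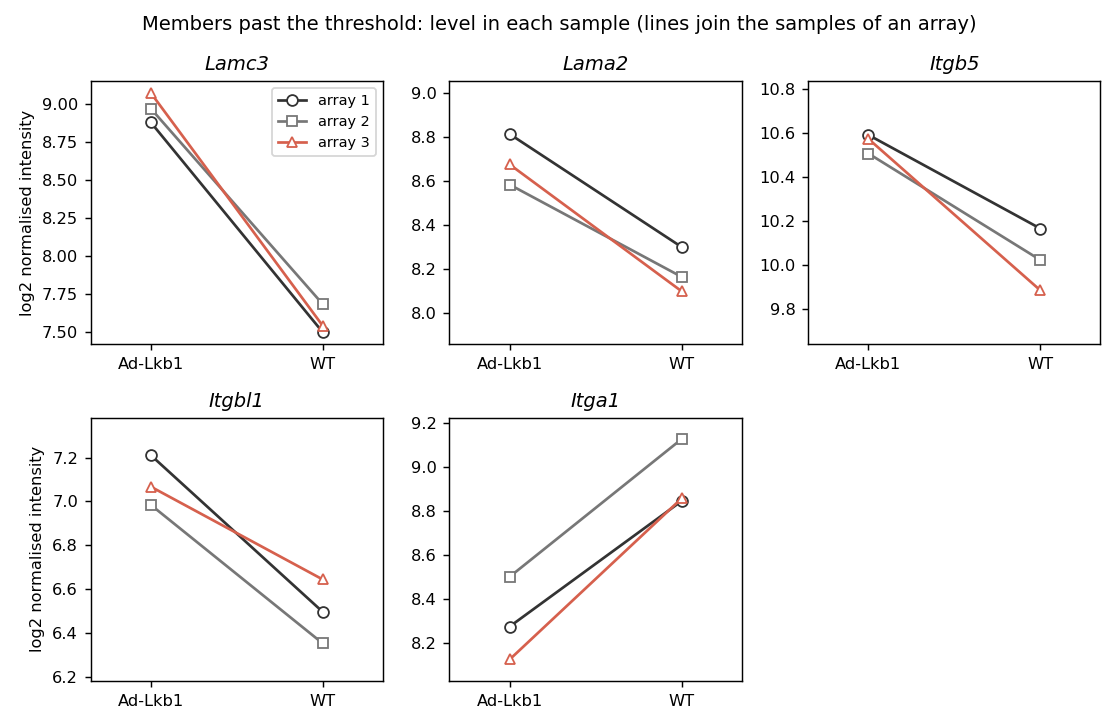
Log2 normalised intensity in each sample for the 5 members past the threshold, Ad-Lkb1 at left and WT at right, with a line joining the 2 samples of an array. Lines fall to the right for 4 genes and climb for Itga1. The groups do not overlap, but the 5 were picked by the ratios of these same samples. Their separation is therefore no separate support. With median centring Itgb5 and Lama2 gave ratios of -0.18 and -0.11, beside -0.42 for the median of all features.

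Promoter windows are shown for 2 of the called members, so that the sequence upstream of a gene that rose and one that fell can be read beside their values. RefSeq gave a window of 250 bases before a transcript start for 19 of the 29 genes tested, and for 7 of them the window lay wholly outside the annotated gene, as it did for Itgb5 and Itga1. The windows of Itgb5 (chr16:33829415-33829664, plus strand) and Itga1 (chr13:115101965-115102214, minus strand) follow from RefSeq on GRCm38.p6, 5′ to 3′ along the gene, where capitals would mark matches to a searched motif.
Itgb5: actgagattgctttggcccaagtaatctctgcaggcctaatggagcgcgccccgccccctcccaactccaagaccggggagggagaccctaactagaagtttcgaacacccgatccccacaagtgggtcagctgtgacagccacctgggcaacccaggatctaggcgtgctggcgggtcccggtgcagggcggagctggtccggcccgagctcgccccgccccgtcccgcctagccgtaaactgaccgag
Itga1: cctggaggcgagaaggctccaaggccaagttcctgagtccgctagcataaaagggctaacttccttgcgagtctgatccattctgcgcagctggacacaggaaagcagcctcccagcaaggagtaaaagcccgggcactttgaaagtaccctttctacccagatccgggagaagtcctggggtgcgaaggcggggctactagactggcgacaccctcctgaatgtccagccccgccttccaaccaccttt
The motifs searched on both strands were TGANTCA (AP-1), TGACGT (CREB), GAGGAA (PU.1) and CACGTG (E-box), and neither window held any of the 4. Of all 32851 windows of this length before a RefSeq transcript start, inside a gene or not, 6.75% held TGANTCA, 6.47% TGACGT, 23.3% GAGGAA and 6.02% CACGTG. The GC content was 65.2% for Itgb5 and 57.6% for Itga1.

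Of the 14 integrins outside the leukocyte group that could be tested, 2 rose and 1 fell, beside 4.78% and 3.92% of all features. Their median log2 ratio was 0.15, and the lowest and highest means were -0.64 for Itga1 and 0.59 for Itgbl1. Itgbl1 is integrin-like in name only: it is a secreted protein with repeats like those of a beta subunit, and not part of a receptor. Its log2 intensity was 7.21, 6.98 and 7.07 in Ad-Lkb1 tissue, against 6.50, 6.35 and 6.64 in WT tissue, without overlap. The log2 ratio was 0.59 ± 0.15 (SD, n = 3; limma adjusted p = 0.0326). The call was lost with median centring, at 0.29 (adjusted p = 0.0792), and with no filter on dim probes (adjusted p = 0.0526), and its other probe was well above background on no array.

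Itgb5 encodes a beta subunit that pairs with Itgav, binds vitronectin and takes part in the uptake of apoptotic cells. Its log2 intensity was 10.59, 10.51 and 10.57 in Ad-Lkb1 tissue, against 10.17, 10.02 and 9.88 in WT tissue. The groups did not overlap, and the log2 ratio was 0.53 ± 0.14 (SD, n = 3), or 1.45-fold (limma adjusted p = 0.0364). With median centring the Itgb5 ratio was -0.18, beside -0.42 for the median of all features, and the adjusted p was 0.0555 without array 3. Its partner Itgav had a ratio of 0.09 (adjusted p = 0.582). Mfge8, a bridging protein that this pair recognises on dying cells, had log2 intensities of 14.73, 14.37 and 14.13 in Ad-Lkb1 tissue, against 12.81, 12.92 and 12.75 in WT tissue. It rose with a log2 ratio of 1.58 ± 0.29 (SD, n = 3; limma adjusted p = 0.0139), while vitronectin, Vtn, gave -0.23.

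Itga1 was the member that fell. It encodes the alpha-1 subunit, which with Itgb1 forms a receptor for type IV and other collagens. Log2 intensities were 8.27, 8.50 and 8.12 in Ad-Lkb1 tissue, against 8.85, 9.13 and 8.86 in WT tissue. Every Ad-Lkb1 sample was below every WT sample, and the log2 ratio was -0.64 ± 0.08 (SD, n = 3), or 1.56-fold lower (limma adjusted p = 0.0227). A second, dimmer probe gave -0.06, -0.43 and -0.25, and the mean of both probes gave -0.44 (adjusted p = 0.0427). With median centring the Itga1 ratio was -1.27, beside -0.42 for the median of all features. The Itga1 call was lost with the software's processed signals (adjusted p = 0.117) and in the deposited table (adjusted p = 0.0608). Of the other collagen receptor subunits, Itga11 had 0.16, 0.61 and -0.01, and Itga2 was well above background on no array. Itga1 is carried by endothelium and smooth muscle among other cells. Of 8 smooth muscle and pericyte markers 1 rose (Cnn1, uncalled at 0.39 with median centring) and 1 fell (Cspg4, uncalled without array 3 at an adjusted p of 0.0855), and the sum was 5545, 7460 and 6176 in Ad-Lkb1 tissue and 5946, 6413 and 6580 in WT tissue. Of 8 endothelial markers 1 rose (Vwf, at -0.25 with median centring) and 1 fell (Kdr), both uncalled without array 3 (adjusted p = 0.0793 and 0.0592), and their summed level was 3727 to 5040 in Ad-Lkb1 tissue and 4475 to 5335 in WT tissue. The part of these cells in the result was not tested.

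The remaining integrins gave no call. None of the 4 laminin-binding subunits passed by limma, and 0 of the 4 did so at an unadjusted p under 0.05; their median log2 ratio was -0.01. Itga7, the muscle laminin receptor, had ratios of 0.48, 0.02 and -0.23, on arrays whose muscle markers had median ratios of -3.17, 2.33 and 3.90. Itga6 had 0.71, -0.11 and 0.41, Itgb4 had -0.16, -0.12 and -0.02, and Itga3 had -0.27, -0.17 and -0.10. Itgb1, the subunit shared by most matrix receptors, had 0.67, -0.13 and 0.00. Itga6 and Itga7, which pair with Itgb1, were also high on array 1, while Itga1, another partner, had -0.57 there and Itga3 had -0.27.

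Among the Arg-Gly-Asp receptors, the 3 alpha subunits tested were uncalled, with means of 0.09 for Itgav, 0.13 for Itga8 and 0.19 for Itga5. Itga5, the fibronectin receptor subunit, was not well above background in WT tissue on any array, with mean log2 intensities of 6.35 in Ad-Lkb1 tissue and 6.16 in WT tissue (adjusted p = 0.230), so its WT level has only an upper bound and no fold is given. Itgb3, which pairs with Itgav or with the platelet subunit Itga2b, had 0.36, 0.12 and 0.57 (mean 0.35, adjusted p = 0.121). Itga2b itself was well above background on 2 arrays in Ad-Lkb1 tissue and on none in WT tissue, and was not tested. Of 4 platelet markers tested, Pf4 alone was called, with log2 intensities of 11.12, 11.29 and 11.09 in Ad-Lkb1 tissue, against 9.34, 8.89 and 9.43 in WT tissue. The summed level of the 4, most of it Pf4, was 2409 to 2732 in Ad-Lkb1 tissue and 699 to 943 in WT tissue. The median log2 ratio of the 4 was 0.10, Ppbp had 0.16 (adjusted p = 0.332), and 2 of the 4 differed in sign between arrays; the part of platelets in the result was not tested.

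No leukocyte integrin was called. Limma passed 0 of 6 at the adjusted threshold and 2 at an unadjusted p under 0.05, Itgb2 and Itgax, beside 14.3% of all features higher and 15% lower at that p. The WT samples differed among themselves more than the Ad-Lkb1 samples did. Across the 6 genes the median SD of the log2 intensity was 0.10 in Ad-Lkb1 tissue and 0.55 in WT tissue, and the WT SD was the larger in 6 of 6, beside 59.0% of all features.

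Itgb2 encodes the beta subunit common to the leukocyte adhesion receptors of Itgal, Itgam, Itgax and Itgad. Its log2 intensity was 8.46, 8.46 and 8.19 in Ad-Lkb1 tissue, against 6.62, 6.50 and 7.80 in WT tissue. The groups did not overlap, but the WT sample of array 3 stood close to the Ad-Lkb1 samples, and the ratios were 1.83, 1.97 and 0.39. The mean log2 ratio was 1.40 ± 0.87 (SD, n = 3; limma adjusted p = 0.0790). Its mean is the same to 2 decimals as that of Lamc3, whose SD was 0.12.

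Itgax encodes the alpha subunit carried by dendritic cells and by many macrophages of fat. Log2 intensities of Itgax were 7.62, 7.65 and 7.63 in Ad-Lkb1 tissue, against 6.37, 6.15 and 7.61 in WT tissue. The 3 Ad-Lkb1 samples were nearly level, and on array 3 the WT sample lay 0.02 below its Ad-Lkb1 counterpart, so the groups came close without overlapping. The mean log2 ratio was 0.92 ± 0.79 (SD, n = 3; limma adjusted p = 0.138).

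Itga4, a subunit of the receptors for Vcam1 and Madcam1, had 7.04, 6.90 and 6.82 in Ad-Lkb1 tissue, against 6.25, 6.20 and 6.93 in WT tissue, so the groups overlapped through array 3. Itgb7, its partner in gut homing, had 7.18, 7.12 and 7.02 in Ad-Lkb1 tissue, against 6.62, 6.40 and 7.69 in WT tissue, where array 3 lay above all 3 Ad-Lkb1 samples. Itgal, the lymphocyte subunit, had 6.77, 6.71 and 6.58 in Ad-Lkb1 tissue, against 6.70, 6.41 and 7.13 in WT tissue. The mean log2 ratios were 0.46, 0.20 and -0.06 in that order of genes, with adjusted p of 0.217, 0.705 and 0.859. Itgam, the myeloid subunit, was the exception: its WT level was highest on array 2, its ratios were 0.02, -0.30 and -0.00, and its mean was -0.09 (adjusted p = 0.576). The 3 probes of Itgam disagreed, with -0.56, 0.02 and 0.05 for the second and 0.64, 0.24 and 0.07 for the third. Itgad and Itgb2l were well above background on no array.

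**Figure D3:**
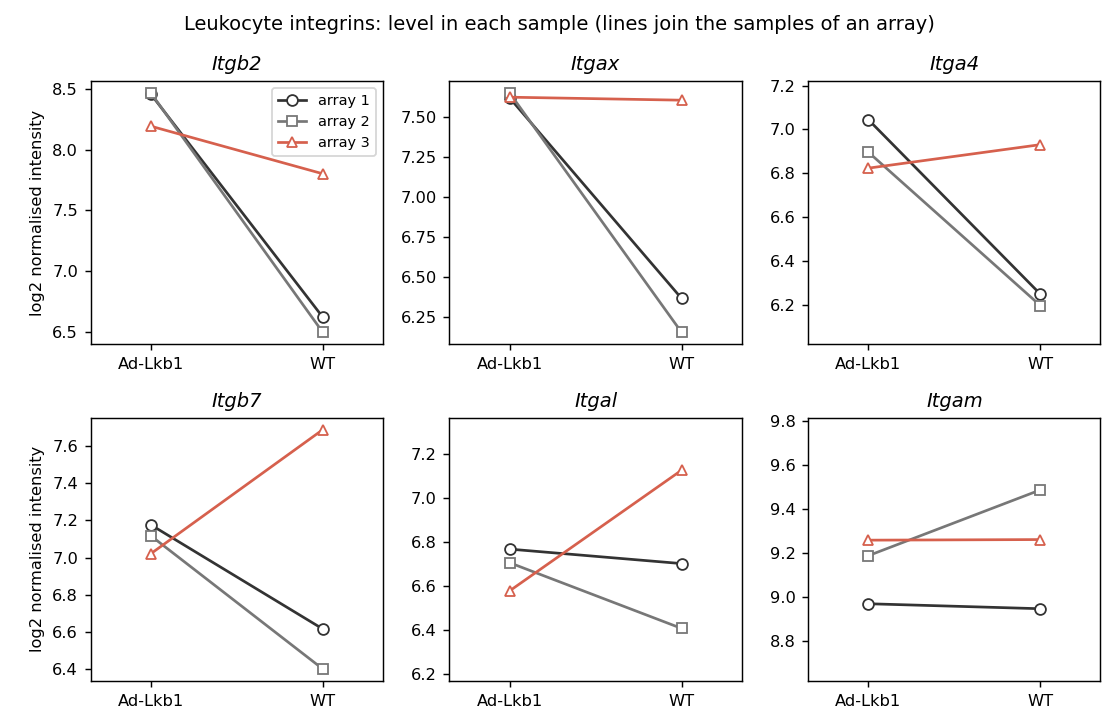
Log2 normalised intensity of the 6 leukocyte integrins in each sample, Ad-Lkb1 at left and WT at right, with a line joining the 2 samples of an array and array 3 in red. In 5 of 6 genes, Itgam being the exception, the WT sample of array 3 is the highest of the WT samples.

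Array 3 stood apart from the other arrays in this group. Its WT sample was the highest of the 3 WT samples for 5 of 6 leukocyte integrins, beside 29.7% of all features, and its ratio was the lowest for 5 of 6, beside 33.6%. Without array 3, limma called 4 of the 6 as higher in Ad-Lkb1 tissue: Itgb2 at 1.90 (adjusted p = 0.00509), Itgax at 1.38 (adjusted p = 0.00759), Itga4 at 0.75 (adjusted p = 0.0206) and Itgb7 at 0.64 (adjusted p = 0.0317). That fit called 1332 features as higher and 720 as lower, against 923 and 758 with all arrays. Leaving out the array that gave the lowest ratios raises the means by construction, so these calls are no separate support. Without array 1 or without array 2, no feature was called.

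The pan-leukocyte and the T and NK cell sums, and the B cell marker Cd79b, were also highest in the WT sample of array 3. The WT sums of monocyte and neutrophil and of dendritic cell markers were highest on array 2, most of the dendritic cell sum being Siglech. The 6 pan-leukocyte markers summed to 4159, 4272 and 3537 in Ad-Lkb1 tissue and to 1111, 951 and 4688 in WT tissue. None of the 6 was called by limma and 3 passed an unadjusted p of 0.05; the smallest p-values were those of Cd53 and Lcp1, with log2 ratios of 0.78 and 1.76, and both passed without array 3 (adjusted p = 0.00995 and 0.00479). The 7 T and NK cell markers tested of 11 summed to 1269, 1326 and 1279 in Ad-Lkb1 tissue and to 1211, 1191 and 2028 in WT tissue, with none called and none at an unadjusted p under 0.05. Cd8a, Cd8b1, Foxp3 and Ncr1 did not pass the filter. Of 6 B cell markers Cd79b alone passed it, at 98.7, 92.8 and 88.2 in Ad-Lkb1 tissue and 88.5, 74.1 and 131 in WT tissue.

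The summed level of macrophage markers kept the groups apart, though single markers did not all do so. The 14 tested of 15 summed to 12146, 12646 and 10851 in Ad-Lkb1 tissue and to 3725, 3083 and 6260 in WT tissue, so every Ad-Lkb1 sum lay above every WT sum. Of the 14, 7 rose, beside 4.78% of all features. Trem2 and Gpnmb, genes of lipid-laden macrophages, had log2 ratios of 3.39 and 2.66 (limma adjusted p = 0.0105 and 0.0157), and the lowest single-array ratio of Gpnmb was 2.01. Array 3 gave the lowest ratio for 12 of the 14, and 2 of the 14 differed in sign between arrays. Cd14, with the lowest mean, had 8.06, 7.92 and 7.98 in Ad-Lkb1 tissue, against 7.77, 7.79 and 8.48 in WT tissue, a log2 ratio of -0.03 (adjusted p = 0.941). Of the other myeloid lists, 2 of 6 monocyte and neutrophil markers rose, with sums of 7233, 9238 and 11561 in Ad-Lkb1 tissue and 6174, 9807 and 8616 in WT tissue. Of 6 dendritic cell markers 0 were called by limma, with 1 at an unadjusted p under 0.05, and the sums were 5973, 7210 and 8147 in Ad-Lkb1 tissue and 7442, 13516 and 9123 in WT tissue. Most of each dendritic cell sum was Siglech, at log2 intensities of 12.41, 12.71 and 12.90 in Ad-Lkb1 tissue, against 12.78, 13.68 and 13.07 in WT tissue. Siglech had a log2 ratio of -0.51 (limma adjusted p = 0.142), while Ccr7 had 0.53 (adjusted p = 0.173). The part of these myeloid cells in the leukocyte integrin values was not tested.

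Leukocyte integrins were then set against the other integrins. The median log2 ratio was 0.33 for the 6 leukocyte integrins and 0.15 for the 14 others, beside 0.05 for laminins and -0.01 for all features. By array, the leukocyte median was 0.68, 0.71 and -0.05 and that of the others 0.22, 0.04 and -0.00, so the difference was 0.46, 0.66 and -0.05. On each array the values of the groups overlapped. On array 2, leukocyte integrins spanned -0.30 to 1.97 and the others -0.63 to 0.63. The narrow list of beta-2 integrins, of which 4 were tested, had a median of 0.43. No test was made over the lists, since single genes of a family are not replicates.

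**Figure D4:**
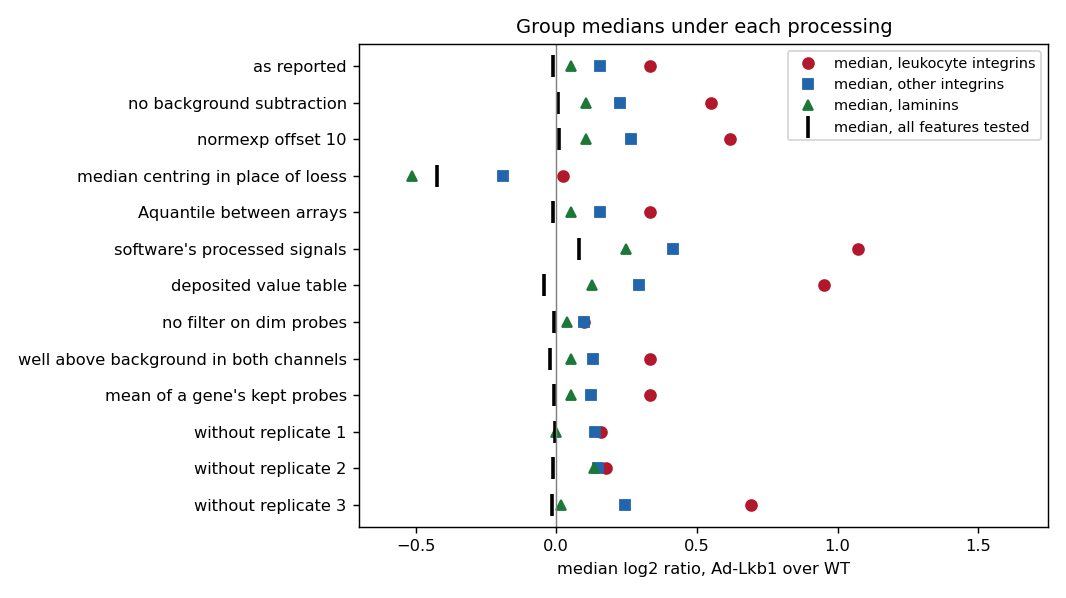
Median log2 ratio of leukocyte integrins, other integrins, laminins and all features tested, with 1 row for each processing. The leukocyte median runs from 0.02 with median centring, where the median of all features is -0.42, to 1.07 with the software's processed signals, and other integrins and laminins lie below 0 with median centring.

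Calls among the ligands and partners of these receptors are given beside the shares of all features, 4.78% higher and 3.92% lower. Of 15 integrin ligands tested of 23, 6 rose and 0 fell, with 1 lower at an unadjusted p under 0.05, and the median log2 ratio was 0.66. Col3a1, a fibrillar collagen chain, had log2 intensities of 12.25, 12.26 and 12.39 in Ad-Lkb1 tissue, against 11.06, 11.15 and 11.18 in WT tissue. The groups did not overlap, and it rose by a log2 ratio of 1.17 ± 0.05 (SD, n = 3; limma adjusted p = 0.0105). Thbs1, a matricellular thrombospondin, had a ratio of 0.98 (adjusted p = 0.0142) and Col1a1 one of 0.74 (adjusted p = 0.0283). With Mfge8, given above, these 4 had the smallest p of the list; the other 2, named after their values were seen, were fibronectin, Fn1 (0.89, adjusted p = 0.0394), and the Itga4 ligand Madcam1 (0.68, adjusted p = 0.0434). With median centring the ratios were 0.46 for Col3a1 and 0.59 for Thbs1, both still called, and 0.04 for Col1a1 (adjusted p = 0.838), 0.23 for Fn1 (adjusted p = 0.365) and 0.39 for Madcam1, all 3 uncalled. Over the 12 alternatives Col1a1 and Madcam1 were called in 7 and Fn1 in 6. Vcam1, the other Itga4 ligand, had 1.07, 0.84 and 0.21 (adjusted p = 0.0870), with array 3 lowest. Without array 3 Madcam1 lost its call (adjusted p = 0.0677) and Vcam1 gained one (adjusted p = 0.0154). Fibroblast markers summed to 19809 to 26528 in Ad-Lkb1 tissue and 11096 to 14020 in WT tissue, with 4 of 7 called as higher, beside 4.78% of all features. Their part in the result was not tested.

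Of 19 basement membrane partners of laminin tested of 22, 4 rose and 1 fell, beside 4.78% and 3.92% of all features, and the median log2 ratio was 0.02. Nid1, nidogen-1, which bridges the laminin gamma chain to type IV collagen, had log2 intensities of 10.35, 9.97 and 10.11 in Ad-Lkb1 tissue, against 8.98, 8.99 and 8.98 in WT tissue. The groups did not overlap, with a log2 ratio of 1.15 ± 0.20 (SD, n = 3; limma adjusted p = 0.0149). Its relative Nid2 had 0.64 (adjusted p = 0.0328) and Sparc, a collagen-binding protein, 0.86 (adjusted p = 0.0368); the syntrophin Sntb2, named after its value was seen, had 0.44 (adjusted p = 0.0459; 0.0864 without array 3). With median centring the ratios were 0.46 for Nid1, still called, and 0.30 for Nid2, 0.18 for Sparc (adjusted p = 0.481) and 0.10 for Sntb2 (adjusted p = 0.516), all 3 uncalled. Over the 12 alternatives Nid2 was called in 7, and Sparc and Sntb2 in 5. The type IV collagen chains Col4a1 and Col4a2, also named after their values were seen, had 0.72 and 0.63 and missed the threshold (adjusted p = 0.0555 and 0.0863).

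Dag1, dystroglycan, a laminin receptor outside the integrin family, was the partner that fell. Dag1 measured 10.00, 10.26 and 10.22 in Ad-Lkb1 tissue, against 10.84, 11.08 and 10.99 in WT tissue. No Ad-Lkb1 sample reached a WT sample, and the log2 ratio was -0.81 ± 0.04 (SD, n = 3; limma adjusted p = 0.0139). The ratios were -0.84, -0.82 and -0.77 on arrays where skeletal muscle markers had medians of -3.17, 2.33 and 3.90, and the part of muscle in the result was not tested. The ratio was -1.52 with median centring, where the median of all features was -0.42. The Dag1 call was lost with the software's processed signals at -0.74 (adjusted p = 0.0792).

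**Figure D5:**
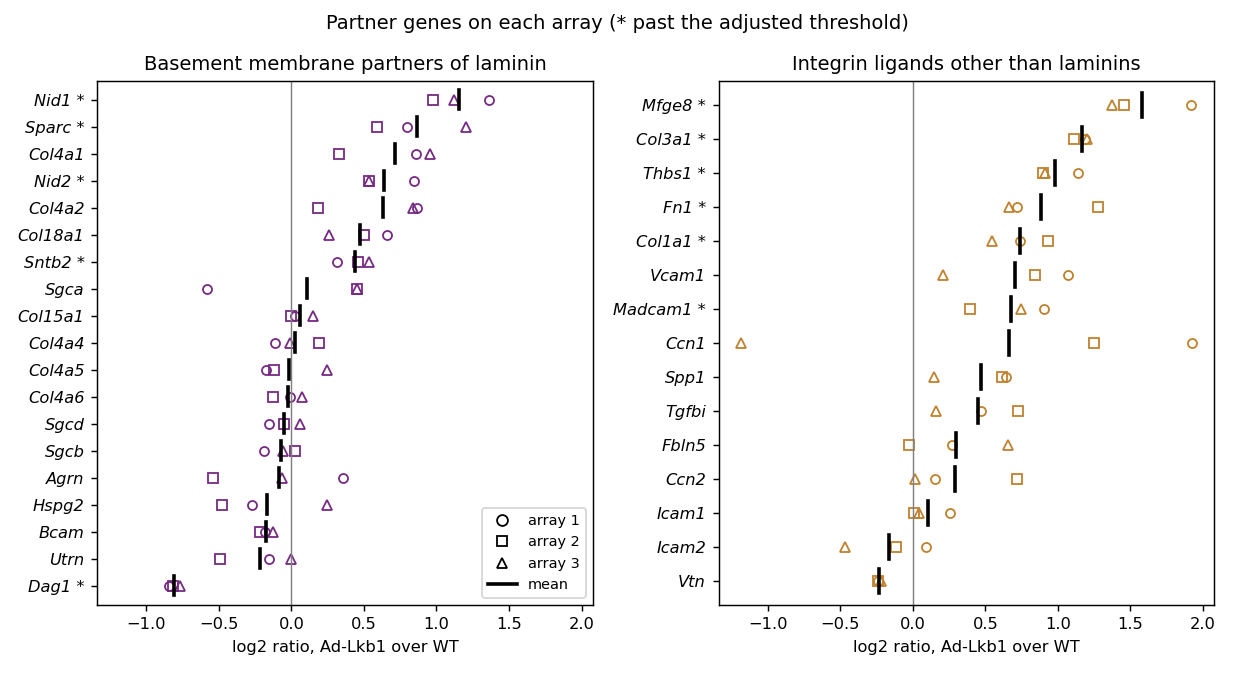
Log2 ratio of Ad-Lkb1 over WT on each array for the basement membrane partners and for the integrin ligands other than laminins, with a black bar for the mean and an asterisk for an adjusted p under 0.05. Nid1 and Mfge8 have the highest means, 1.15 and 1.58, and Dag1 the lowest mean of its list, -0.81.

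Inside the cell, the proteins that couple integrins to actin gave 1 call among 23 tested, beside 8.7% of all features. Of 23 adaptors and kinases tested of 26, Zyx, the focal adhesion protein zyxin, rose with ratios of 0.90, 1.04 and 0.47 (mean 0.80, limma adjusted p = 0.0391), and 0 fell, with 1 lower at an unadjusted p under 0.05. Zyx was called in 7 of 12 alternatives, and with median centring it was uncalled at 0.10 (adjusted p = 0.634). The median log2 ratio of the list was 0.07.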

How the data were processed

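Brown adipose tissue RNA of 3 Ad-Lkb1 and 3 WT mice was hybridised in pairs to 3 two-colour Agilent arrays, Cy5 for Ad-Lkb1 and Cy3 for WT, per the labels. Agilent Feature Extraction, given as version 11.5 in the submitters' processing notes, made the deposited files: per the file headers these carry each spot's median intensity and its local background in either dye, a background-subtracted and dye-normalised intensity, flags, and the log10 ratio of Cy5 over Cy3. The deposited value table matched that log10 ratio by feature number (r at least 0.999999, column median 0), so its scale, centring and direction are known.

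Log2 ratios were computed here in R 4.3.3 with limma 3.58.1: normexp on the deposited median intensity values with offset 50, loess within arrays, control spots and outlier flags left out. A probe was kept if Cy5 or Cy3 was flagged well above background on each of the 3 arrays (25030 of 55678 probes), and the brightest kept probe stood for a gene. Levels are log2 normalised intensities, comparable between samples of a probe and not between probes; summed levels are on the linear scale. lmFit and eBayes tested each ratio against 0, with Benjamini-Hochberg adjustment over 19327 features and a threshold of 0.05. The script was tested on simulated data.

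Probes were named by RefSeq accession on GRCm38.p6, where 28026 probes had 1 symbol; Itga10 and Itgae matched none. One gene is not reported here, and counts of members leave it out. The text names Stk11, each member past the threshold, the extremes of each list and up to 4 called genes with the smallest p per partner list or 2 per marker list, beside exceptions stated in place. Members and lists were chosen with earlier results of these data known. The design text calls the samples biological replicates. Alternatives were background correction, normalization, processed signals, the deposited table, the filter, the mean of probes, and each array left out.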

Additional observations from a re-analysis of the deposited data

How the results depend on the processing

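Over 12 alternatives, Lamc3 stayed past the threshold in 10 (log2 ratios 0.82 to 1.85), Itga1 (-1.27 to -0.44) and Itgbl1 (0.29 to 1.37) in 8, Lama2 in 6 and Itgb5 in 5. Median centring put the median of all features at -0.42, with 389 features higher and 9708 lower, 1 leukocyte integrin lower, 0 other integrins higher and 3 lower, 1 laminin higher and 3 lower, and medians of -0.19 for other integrins and -0.51 for laminins. Under it these ratios, called in one fit or the other, changed sign: Itga7 -0.62, Itgb1 -0.47, Itgb5 -0.18, Lama2 -0.11, Lama4 -0.67, Lamc1 -0.60, Cidea -0.12 and Vwf -0.25. The centring used the median of all non-control spots, including those of probes not kept. Itgb5, Lama2, Cidea and Vwf stayed above the -0.42 median of all features, and Itga7, Itgb1, Lama4 and Lamc1 lay below it. The cause of the sign changes was not tested. The software's processed signals gave 230 features lower, 1 other integrin higher and 0 lower, 1 laminin higher, medians of 1.07 for leukocyte integrins, 0.42 for other integrins and 0.25 for laminins, and a difference of 0.65. The deposited table gave 526 features higher and 280 lower, 1 other integrin higher and 0 lower, 1 laminin higher, medians of 0.95 and 0.29, and a difference of 0.66. With no filter, where 36794 features were tested, 541 were higher and 492 lower, 0 other integrins were higher and the difference was -0.0026. Leaving out an array gave 0 to 1332 features higher and 0 to 720 lower, 0 to 4 leukocyte integrins higher, 0 to 1 other integrins higher, 0 to 1 lower and 0 to 1 laminins higher; with arrays 2 and 3 or 1 and 3 nothing was called. Of 846 alternative values of named genes, 697 kept their side of the threshold, 125 lost the call, 16 gained it and 8 were those that changed sign. Each ratio pairs the 2 samples of an array, so the fit of 1 group is itself the paired analysis. Signals near background limit dim members such as Itga5, and 3 arrays limit all.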
